A study of Homo sapiens with 6 samples.

Results

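The tribbles genes TRIB1, TRIB2 and TRIB3, their relative STK40 and their ligase partner COP1 were followed in LNCaP, an established androgen-responsive line of human prostate cancer. The 5 genes were found by name among the 35430 genes of the deposited table, and all 5 passed the filter on low counts. RNA came from 3 libraries labelled control and from 3 libraries of cells given palbociclib, an inhibitor of the kinases CDK4 and CDK6, at 0.5 µM for 1 week. What the control cells received, and for how long, is not recorded in the sources used here, so drug and culture conditions cannot be told apart. TRIB3 is the gene that the series title names as inhibited by the drug.

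Tribbles proteins are pseudokinases: they keep the fold of a protein kinase but have little or no catalytic activity and act as scaffolds. Their carboxy-terminal tail carries a short peptide that docks the ubiquitin ligase COP1, so that a protein held by the pseudokinase domain, such as the transcription factor C/EBP alpha bound by TRIB1 and TRIB2, is ubiquitinated and degraded. A further tail peptide binds the kinase MEK1, and TRIB3 is known as a binding partner of the kinase AKT. TRIB3 is also a target gene of the integrated stress response, in which eIF2 alpha kinases raise translation of ATF4, and ATF4 and its partner CHOP (DDIT3) activate stress genes.

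The 3 tribbles genes went separate ways. TRIB3 fell 10.5-fold, TRIB2 rose 3.23-fold, and TRIB1 did not pass the test (1.02-fold higher), each with 3 libraries per group. STK40 was lower by a log2 fold change of -0.19 and COP1 higher by 0.21, changes far smaller than those of TRIB2 and TRIB3. Because TRIB3 had supplied nearly all tribbles RNA, the summed level of the 3 genes was 7.52-fold lower with palbociclib. Of all 21218 genes tested, 38.6% were called in either direction at an adjusted p of 0.05, 20.1% as higher and 18.5% as lower (quasi-likelihood F-test of edgeR, p-values adjusted after Benjamini and Hochberg), so that a call by itself did not set these genes apart. Their groups failed to overlap in 4 cases out of 5, against 51.1% of all genes tested.

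**Figure D1:**
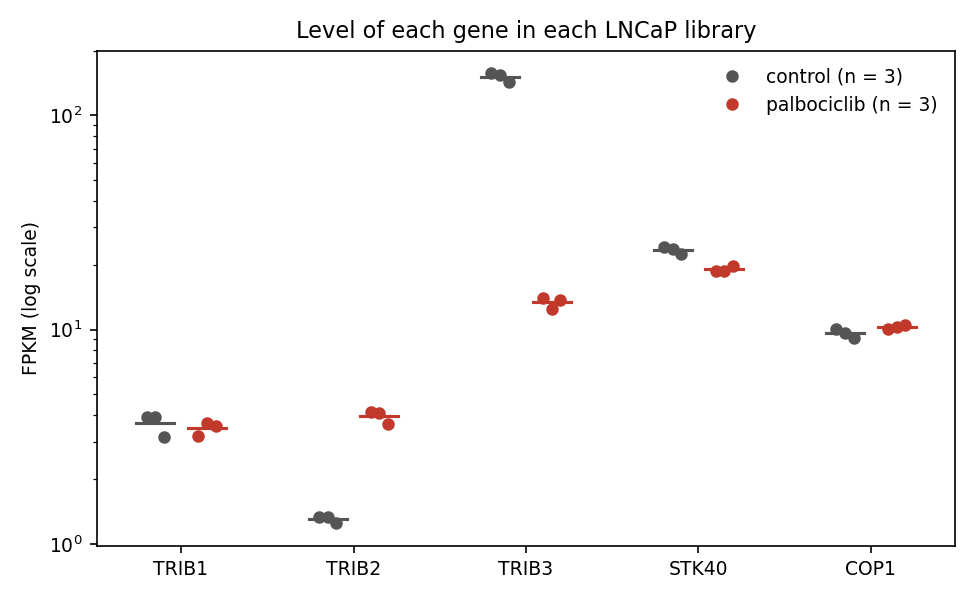
FPKM of each gene (vertical axis, log scale) in the 3 control and the 3 palbociclib libraries, with each point a library and each bar the mean of a group. TRIB3 dropped from between 144.1 and 157.5 FPKM to between 12.5 and 13.99, TRIB2 went from at most 1.34 to at least 3.63, and the groups of TRIB1 overlapped.

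Total estimated counts ran from 57082715 to 78117945 per library, and about 4 of these counts stand for a fragment. Luminal prostate markers, KLK3, KLK2, TMPRSS2, HOXB13, FOXA1, KRT8, KRT18 and FOLH1 among them, summed to 1236 to 1243 FPKM in controls and 1739 to 1772 with palbociclib, and each of the 10 was present. The 2 basal markers analysed summed to 0.413 to 0.950 FPKM in controls and 0.973 to 1.72 with palbociclib, and the 2 endothelial markers to 0.927 to 1.306 and 0.490 to 0.569. Over all libraries the 2 neuroendocrine markers summed to 0.138 to 0.352 FPKM and the 4 fibroblast markers to 3.31 to 3.58. The 4 leukocyte markers summed to 1.39 to 1.66 FPKM in controls and 2.07 to 3.27 with palbociclib. Most of that was CD68, which lysosomes of many cell types carry, and the pan-leukocyte gene PTPRC averaged 0.0747 and 0.0263 FPKM. None of these markers of other cells was at 0 in every library. The mitochondrial genome gave 5.67% to 6.15% of counts in controls and 7.05% to 7.43% with palbociclib, and the part of these markers and of the mitochondrial share in the results was not tested.

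TRIB3 (ENSG00000101255, chromosome 20, 362835 to 397559 on hg38, plus strand) was at 157.5, 153.9 and 144.1 FPKM in control libraries 1, 2 and 3. It was at 13.99, 12.5 and 13.8 FPKM in palbociclib libraries 1, 2 and 3. All 3 treated libraries lay close together and far below every control. FPKM is the authors' value per kilobase of exon, so it allows levels of different genes to be compared. By mean FPKM, TRIB3 ranked 164 among all genes of the table in controls and 3228 with palbociclib. In CPM, the count scaled by TMM to a common library size, it went from 499.6 ± 21.6 to 47.7 ± 2.91 (SD, n = 3 each). Its log2 fold change was -3.39 ± 0.0579 (SE), with an edgeR adjusted p of 1.52e-08. That was the 80th largest fall of the 21218 genes tested. In bulk RNA, fewer cells with the transcript and less of it per cell cannot be told apart.

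The DNA of TRIB3 is shown for the elements through which ATF4 and CHOP are known to act on this gene. The core of the composite element, TTGCATCA or its reverse complement TGATGCAA, was searched on both strands over the gene and the stretch just before it (361835 to 397559). It occurred 5 times, and 3 copies stood in a row, each 33 bases from the next, with all 33 bases of a repeat unit identical between neighbours. The 3 copies lie in the first exon of transcript ENST00000217233.9, before the start codon, 132, 165 and 198 bases after that transcript's annotated start. The sequence is that of the reference genome hg38, and the number of copies in LNCaP itself was not examined. The copies read as follows on the plus strand, with the core in capitals.
TRIB3 copy 1, chr20:380884-380907: gctccggtTTGCATCAcccggacc
TRIB3 copy 2, chr20:380917-380940: gctccggtTTGCATCAcccggacc
TRIB3 copy 3, chr20:380950-380973: gctccggtTTGCATCAcccggacc
The other 2 copies were single and outside annotated exons, at 371980 to 371987 and 378225 to 378232. Of 35116 RefSeq promoter windows of 300 bases around annotated starts (GRCh38.p14), 0.866% held the core on either strand. The 3 RefSeq windows of TRIB3 did not hold the core, so none of them covered a repeated copy. The stretch searched in TRIB3 was far longer than a window, so that share does not say how many copies to expect in it. Counts are per gene, so which start site gave the RNA was not resolved here, and a match of letters does not show binding.

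TRIB2 (ENSG00000071575, chromosome 2, 12716910 to 12742734, plus strand), whose protein is known as an oncogene product in acute myeloid leukaemia and as a repressor of FOXO3 in melanoma, was the least abundant of the 5 genes in controls. Its level was 1.34, 1.34 and 1.25 FPKM in control libraries 1, 2 and 3, and 4.10, 4.07 and 3.63 FPKM in palbociclib libraries 1, 2 and 3. Every treated library was higher than every control. The estimated counts behind these values were 498, 364 and 361 in controls and 1486, 1303 and 1015 with palbociclib. On the CPM scale TRIB2 went from 6.003 ± 0.214 to 19.4 ± 1.36 (SD, n = 3 each), with a log2 fold change of 1.69 ± 0.0996 (SE) and an edgeR adjusted p of 4.00e-06. It was the 406th largest rise among the genes tested. On log2(FPKM + 1), which understates the change of low genes, limma gave 1.09. By mean FPKM it moved from rank 12314 to rank 7961 of the table.

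The stretch of TRIB2 before its first annotated transcript start is shown because the gene rose and its protein is linked to the FOXO factors described further on. A FOXO element, GTAAACA or its reverse complement TGTTTAC, was searched on both strands and is in capitals. Such a match of letters does not show binding or which factor would bind, and control of TRIB2 by FOXO factors was not tested.
TRIB2 upstream, chr2:12716686-12716909, plus strand, RefSeq window on GRCh38.p14: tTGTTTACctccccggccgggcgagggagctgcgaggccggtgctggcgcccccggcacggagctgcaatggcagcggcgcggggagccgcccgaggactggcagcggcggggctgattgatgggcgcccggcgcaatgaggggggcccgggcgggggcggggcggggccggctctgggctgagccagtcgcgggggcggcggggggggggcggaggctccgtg
These 224 bases were 80.4% G or C and held the element once, at the far end, at position -249 from the RefSeq start. The element was in 3.42% of all RefSeq promoter windows. Windows were found for TRIB2, TRIB3, STK40 and COP1. Neither TTGCATCA nor the cyclic AMP response element TGACGTCA, which 1.85% of windows held, was in any of them, and the FOXO element was found in that of TRIB2 only.

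TRIB1 (ENSG00000173334, chromosome 8, 125430358 to 125438403), the best studied COP1 adaptor of the family and a gene linked to blood lipids, stayed close to its control level. It was at 3.92, 3.92 and 3.16 FPKM in control libraries 1, 2 and 3, and 3.20, 3.67 and 3.56 FPKM in palbociclib libraries 1, 2 and 3. Control library 3 was the lowest of all 6, and the groups overlapped. In CPM the means were 15.1 ± 1.76 and 15.4 ± 1.06 (SD, n = 3 each), with a log2 fold change of 0.031 ± 0.111 (SE) and an edgeR adjusted p of 0.857. The sign of this value was not stable: it was -0.081 when libraries were scaled by total count alone, -0.061 without control library 3 and -0.0083 without palbociclib library 2, and 0.23 against control library 3 alone.

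STK40 (ENSG00000196182, chromosome 1, 36339624 to 36385924, minus strand), a tribbles-like pseudokinase that also binds COP1, was at 24.3, 23.8 and 22.5 FPKM in control libraries 1, 2 and 3. It was at 18.8, 18.8 and 19.8 FPKM in palbociclib libraries 1, 2 and 3, below every control. In CPM it fell from 132.3 ± 4.78 to 116.2 ± 3.24 (SD, n = 3 each), a change of -0.19 ± 0.0429 on the log2 scale (SE), with an edgeR adjusted p of 0.00808. With total counts alone it was at -0.30. Against control library 3 alone it was at -0.14 and missed the threshold (adjusted p = 0.114, range over alternatives 0.000699 to 0.114). In that comparison the spread comes from the palbociclib libraries only, the lone control is assumed to vary like them, and 5204 genes in place of 8191 were called over the whole table, so a call lost there says little about a gene.

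COP1 (ENSG00000143207, chromosome 1, 175944831 to 176206691 in the deposited table, minus strand), the RING-type E3 ligase that tribbles proteins recruit, was at 10.06, 9.62 and 9.10 FPKM in control libraries 1, 2 and 3. It was at 10.1, 10.2 and 10.5 FPKM in palbociclib libraries 1, 2 and 3. The highest control lay just under the lowest treated library. In CPM it rose from 40.1 ± 1.93 to 46.4 ± 0.811 (SD, n = 3 each), a change of 0.21 ± 0.0529 on the log2 scale (SE), with an edgeR adjusted p of 0.0129. This call depended on the scaling: with total counts alone the log2 fold change was 0.097 (adjusted p = 0.18), and with limma on log2(FPKM + 1) it was 0.093 (adjusted p = 0.148), within a range of 0.00467 to 0.18 over alternatives, and it held against control library 3 alone (0.27). The median log2 fold change over all genes itself shifted by -0.11 under total counts.

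**Figure D2:**
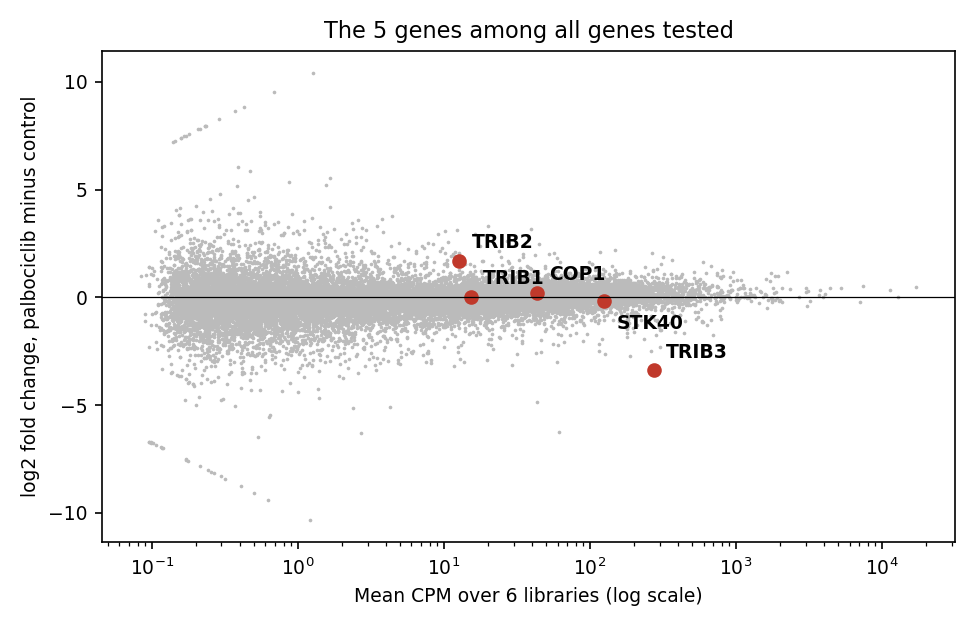
Log2 fold change, palbociclib minus control (vertical axis), against mean CPM over 6 libraries (log scale) for the 21218 genes tested in grey and the 5 genes in red. TRIB3 at -3.39 lay far below the band of genes at its level and TRIB2 at 1.69 at the upper edge, while TRIB1, STK40 and COP1 lay near 0.

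In controls the order of levels per length was TRIB3, STK40, COP1, TRIB1 and TRIB2, at means of 151.8, 23.5, 9.59, 3.67 and 1.31 FPKM, and no neighbours in that order overlapped. With palbociclib the order became STK40, TRIB3, COP1, TRIB2 and TRIB1, at 19.2, 13.4, 10.3, 3.94 and 3.47 FPKM. The last pair, TRIB2 and TRIB1, overlapped (3.63 to 4.10 against 3.20 to 3.67 FPKM) and did not differ beyond their spread.

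The mix of tribbles transcripts changed with these levels. TRIB3 made up 96.8%, 96.7% and 97.03% of summed TRIB1, TRIB2 and TRIB3 FPKM in control libraries 1, 2 and 3, and 65.7%, 61.8% and 65.8% in palbociclib libraries 1, 2 and 3. The mean share fell by 32.4 percentage points, and the groups did not overlap. The exact two-sided permutation test gave p = 0.1, which is the smallest p that 3 against 3 libraries allow. TRIB2 went from 0.835% ± 0.0108 to 18.9% ± 1.46 of the sum, and TRIB1 from 2.33% ± 0.181 to 16.7% ± 1.57 (SD, n = 3 each). The larger share of TRIB1 came with no change of its own level past the test. The TRIB1 and TRIB2 levels added up to 4.98 ± 0.494 FPKM in controls and 7.41 ± 0.293 with palbociclib, against a drop of the whole sum from 156.8 ± 7.40 to 20.8 ± 0.541 FPKM.

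**Figure D3:**
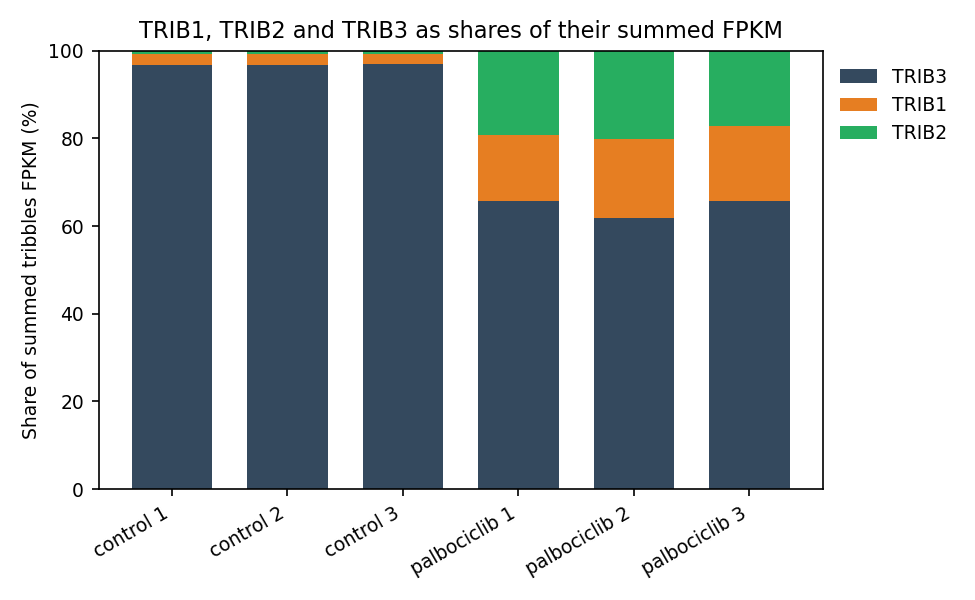
Share of summed TRIB1, TRIB2 and TRIB3 FPKM (percent, vertical axis) held by each gene in each of the 6 libraries. TRIB3 filled at least 96.7% of every control bar and at most 65.8% of every palbociclib bar.

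Set against COP1, TRIB3 RNA was 15.8-fold as abundant per length in controls (15.7, 15.99 and 15.8 in libraries 1, 2 and 3) and 1.31-fold with palbociclib (1.38, 1.22 and 1.31). These ratios varied little within a group. For all 3 tribbles genes together the ratio to COP1 was 16.3 ± 0.178 in controls and 2.03 ± 0.0699 with palbociclib. TRIB2 per TRIB1 went from 0.359 ± 0.0309 to 1.14 ± 0.134. Each ratio had groups that did not overlap and the smallest possible exact p of 0.1. RNA ratios do not give ratios of protein.

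Regulators of TRIB3 were counted next: of 16 genes that feed into its transcription or into the eIF2 alpha pathway, 9 fell, 2 rose and 5 did not pass (median log2 fold change -0.54, against -0.026 for all genes tested). That is 68.8% called, against 38.6% of all genes, of which 18.5% were called lower. ATF4 had 908.4, 887.5 and 919 CPM in the controls against 359.7, 374.5 and 375.3 CPM under palbociclib, for libraries 1, 2 and 3, and changed by -1.29 ± 0.0352 (log2, SE; edgeR adjusted p = 7.47e-08). DDIT3, which encodes CHOP, was at 69.6, 74.7 and 74.8 CPM in controls and 13.2, 9.82 and 13.95 CPM with palbociclib, and changed by -2.57 ± 0.118 (edgeR adjusted p = 9.54e-07). In both genes the groups lay far apart. CEBPG, a bZIP partner of ATF4, fell (-1.93), as did ATF3 (-2.19), CEBPB (-2.46), NUPR1 (-0.89), ATF5 (-0.39) and PPP1R15A (-0.69), the phosphatase subunit that ends the response. ATF5 missed the threshold against control library 3 alone (-0.26). PPP1R15A missed it there (-0.49) and, with changes close to that over all libraries, without control library 1 (-0.63), palbociclib library 2 (-0.57) or palbociclib library 3 (-0.62). The rises were EIF2S1 (0.32), which encodes eIF2 alpha itself, and EIF2AK4 (0.25), the amino acid sensing kinase GCN2, whose call was lost with total counts alone (0.14, adjusted p = 0.0641, range 6.12e-05 to 0.0989). TRIB3 fell further on the log2 scale than any of the 16.

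The COP1 ligase is built from COP1, the adaptor DET1, DDB1, DDA1, the scaffold CUL4A or CUL4B and the RING protein RBX1. All 7 genes were tested: 5 rose, DET1 fell and CUL4B did not pass (0.083), with a median of 0.21. That is 85.7% of 7 genes called, against 38.6% of all genes, of which 20.1% were called higher. RBX1 rose from 34.4 to 54.2 CPM (0.65), DDB1 from 178.8 to 231.3 CPM (0.37), CUL4A by 0.31 and DDA1 by 0.19 on the log2 scale. With total counts alone 3 of the 7 were higher, since COP1 and DDA1 no longer passed, and CUL4B was at -0.028. DET1, which bridges COP1 to DDB1, was at 5.89, 5.42 and 4.46 CPM in controls and 2.28, 1.73 and 3.84 CPM with palbociclib (-1.01 ± 0.279, edgeR adjusted p = 0.0191). Its treated libraries spread widely, and the threshold was missed without control library 1 (-0.92, adjusted p = 0.0733) or 2 (-0.99, 0.0532), without palbociclib library 1 (-0.92, 0.0698) or 2 (-0.79, 0.0584), and against control library 3 alone (-0.78, 0.249), within a range of 0.00137 to 0.249. On log2(FPKM + 1) its change was -0.39.

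Among 13 genes whose proteins are COP1 substrates, 6 fell, 1 rose and 6 did not pass (median -0.27, against -0.026 for all genes). That is 53.8% called, against 38.6% of all genes, of which 18.5% were called lower. CEBPB, a C/EBP family factor, was at 5.71, 7.02 and 6.97 CPM in controls and 1.45, 1.13 and 0.985 CPM with palbociclib (-2.46 ± 0.195, edgeR adjusted p = 2.10e-05). On log2(FPKM + 1) the change of this low gene was -1.52. Its paralog CEBPA, whose protein TRIB1 and TRIB2 hand to COP1, was at 18.3 and 19.2 CPM and did not pass (0.067, adjusted p = 0.598, and -0.045 with total counts alone). MTA1, a subunit of a chromatin remodelling complex (-0.48), JUN (-0.46) and CRTC2 (-0.23) were lower, and ACACA, the acetyl-CoA carboxylase that starts fatty acid synthesis, was higher (0.44). The count of falls was 3 against control library 3 alone, JUN (-0.52) and CRTC2 (-0.15) being among those that missed the threshold there. CRTC2 also missed it without control library 1 (-0.20) or 2 (-0.22) and without palbociclib library 1 (-0.19) or 3 (-0.23).

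Tribbles-binding proteins gave 7 rises, 8 falls and 13 genes that did not pass out of 28, with a median of -0.082. That is 53.6% called, against 38.6% of all genes (20.1% higher and 18.5% lower). This list shares genes with others, so its counts are not a separate result. ATF4, DDIT3 and CEBPB are also among the TRIB3 regulators, and CEBPA, CEBPB, ACACA and FOXO1 among the COP1 substrates. AKT1, AKT2, MAP2K1 and MAP2K4 also belong to the AKT and MEK arm that follows. MAP2K1, which encodes MEK1, was at 53.7, 51.8 and 56.0 CPM in controls and 79.2, 79.5 and 81.4 CPM with palbociclib (0.57 ± 0.0449, edgeR adjusted p = 2.02e-05), and MAP2K4 rose by 0.46. AKT1 rose from 180.6 ± 6.90 to 225.8 ± 1.67 CPM (0.32) and AKT2 from 177.6 ± 7.10 to 208.4 ± 5.96 CPM (0.23), although AKT2 lost its call with total counts alone (0.12, adjusted p = 0.0577, range 4.67e-06 to 0.0844). SIAH1, a ubiquitin ligase known to bind TRIB3, fell from 51.5 ± 4.40 to 24.5 ± 1.51 CPM (-1.07).

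Of 17 genes of the AKT and MEK arm 6 rose and 2 fell, with a median of -0.0081, or 47.1% called against 38.6% of all genes. The rises also held PIK3CB, a catalytic subunit of PI3 kinase (0.58), and MAPK8, a stress-activated kinase, fell (-0.30). The falls numbered 5 with total counts alone and 5 without control library 3. FOXO factors, which AKT keeps out of the nucleus, include FOXO3, the factor TRIB2 represses: FOXO3 was at 136.8 and 129.3 CPM (-0.082, adjusted p = 0.127) and FOXO1 at 12.97 and 11.5 CPM (-0.18, adjusted p = 0.231). FOXO3 passed as lower with total counts alone (-0.19, adjusted p = 0.00366) and with limma on log2(FPKM + 1) (-0.18, 0.0054) and log2(FPKM + 0.1) (-0.19, 0.00576), within a range of 0.00366 to 0.301. Of 19 FOXO-induced genes tested among 20 listed, 5 rose, 8 fell and 6 did not pass (median -0.11), or 68.4% called against 38.6% of all genes. They moved in opposite directions: TXNIP, which restrains glucose uptake (-0.91), CDKN1B, the CDK inhibitor p27 (-0.91), and BCL6 (-0.58) were lower, while PIK3IP1 (0.94), SESN3 (0.80) and CITED2 (0.37) were higher. Against control library 3 alone the falls numbered 5.

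**Figure D4:**
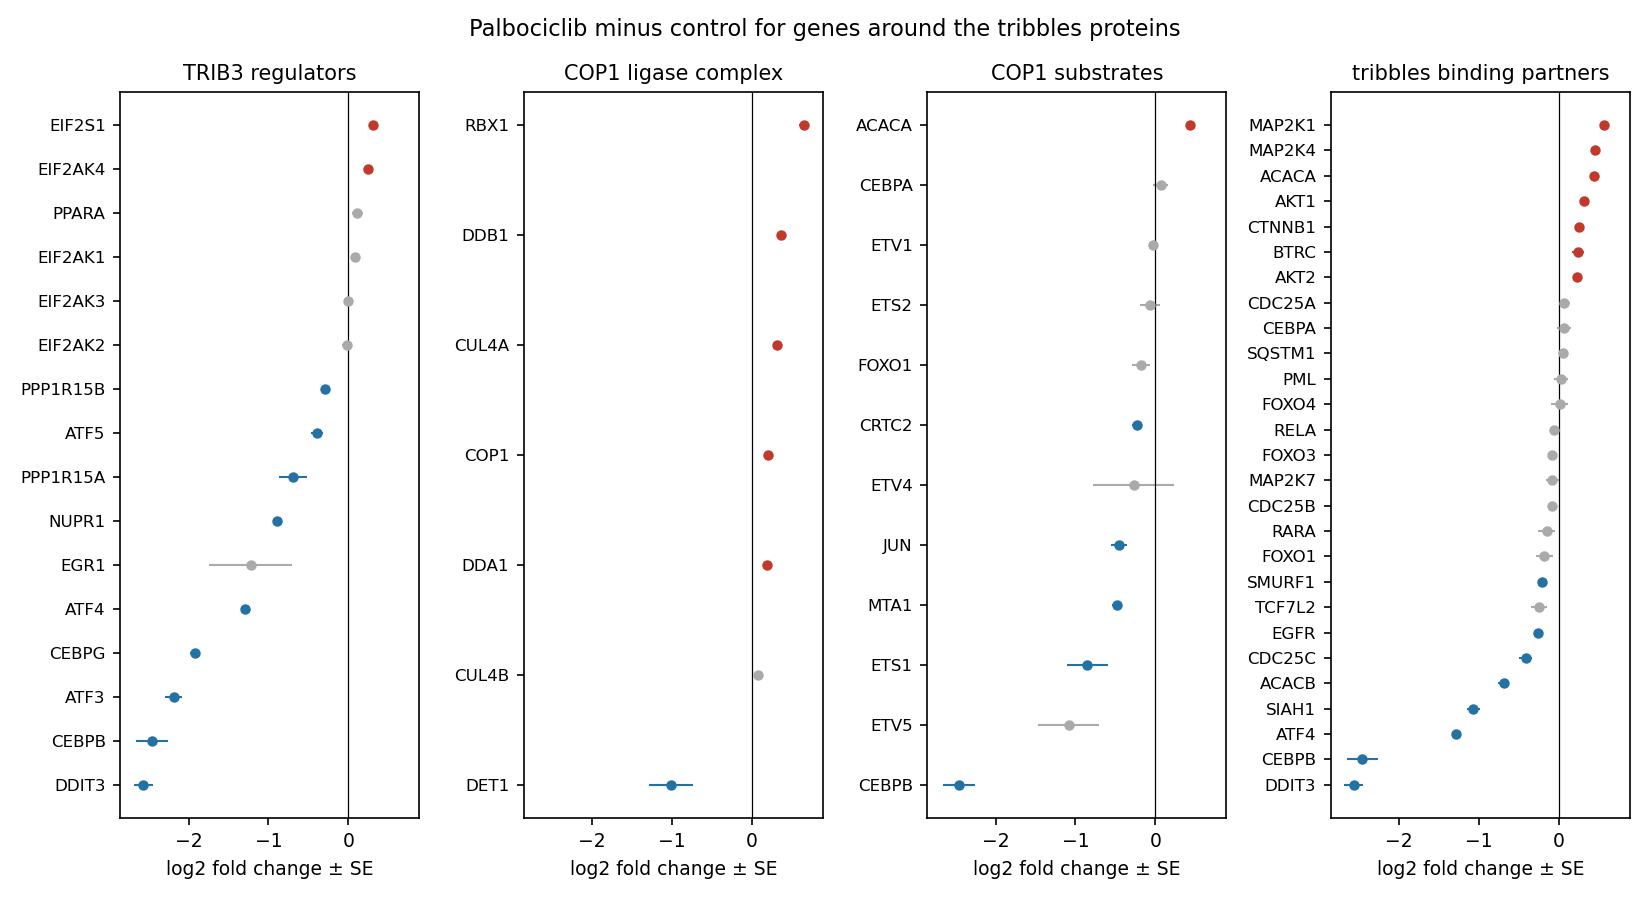
Log2 fold change, palbociclib minus control, with its SE for tested genes of the lists of TRIB3 regulators, COP1 ligase subunits, COP1 substrates and tribbles-binding proteins, in red where higher, blue where lower and grey where the test was not passed. Regulators of TRIB3 such as DDIT3 (-2.57) and CEBPB (-2.46) lay furthest to the left, and RBX1 (0.65) furthest to the right.

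Of 44 pseudokinase genes tested, the 4 pseudokinases above included, 8 rose, 11 fell and 25 did not pass, or 43.2% called against 38.6% of all genes (median -0.081). By adjusted p, TRIB3 and TRIB2 were followed by ROR1, an orphan receptor of the cell surface (15.6 to 7.37 CPM, -1.08), PXK (-0.67), CASK (-0.44) and ILK, which links integrins to actin (0.35). The rises numbered 4 with total counts alone and 5 without control library 1, and the falls 7 without control library 1, 6 without control library 2, 6 without palbociclib library 1 and 4 against control library 3 alone.

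Genes with the nearest expression profile were taken as those with the smallest root mean square distance in centred log2 CPM over the 6 libraries, among 11320 genes at 5 CPM or more. For TRIB3 these were CHAC1, which breaks down glutathione (distance 0.145), SLC6A9, a glycine transporter (0.205), COL16A1, a collagen chain (0.275), and SLC7A5, a carrier of large neutral amino acids (0.282). They fell by 3.15, 3.00, 3.02 and 2.90 on the log2 scale. COL16A1 fell by 1.48 with limma on log2(FPKM + 1). For TRIB2 they were CA12, a carbonic anhydrase (0.0569), ADAMTS1, a secreted protease (0.0622), PTCH1, the Hedgehog receptor (0.0675), and MAP2, which binds microtubules (0.0827). Their log2 fold changes were 1.73, 1.64, 1.64 and 1.63. ADAMTS1 stood at a far higher level than TRIB2, going from 287.6 ± 7.23 to 896.7 ± 27.8 CPM.

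**Figure D5:**
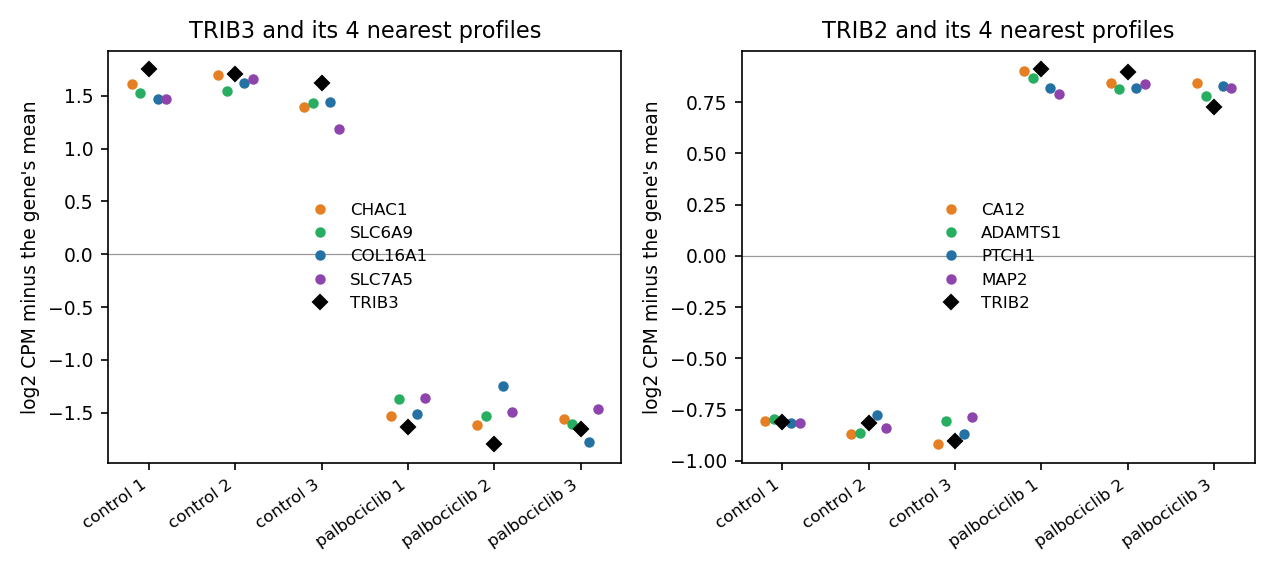
Log2 CPM minus each gene's own mean over the 6 libraries (vertical axis) for TRIB3 and TRIB2 (black diamonds) and the 4 genes nearest to each (coloured points), by library. With 3 libraries per group each profile is mainly the difference between the groups: CHAC1 at a distance of 0.145 was nearest to TRIB3 and CA12 at 0.0569 nearest to TRIB2.

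For STK40 and COP1, whose changes were small, the neighbours lay at smaller distances. The distance is not scaled by the size of a gene's change, so it does not compare likeness of profile between members. Those of STK40 were MYC (distance 0.00843), DNAJB12 (0.0126), RNF220 (0.0133) and MAP3K3 (0.0168), with log2 fold changes between -0.17 and -0.21. MYC, a transcription factor of cell growth, went from 376.5 ± 11.9 to 333.5 ± 10.5 CPM (-0.18, edgeR adjusted p = 0.00806). Against control library 3 alone MYC was at -0.13, DNAJB12 at -0.13, RNF220 at -0.16 and MAP3K3 at -0.15, and like STK40, whose profile they were chosen to match, they missed the threshold. Those of COP1 were TTC19 (0.0148), DDA1 (0.0156), PIGS (0.018) and SEC31A (0.0185), with log2 fold changes from 0.19 to 0.23. With total counts alone these 4 missed the threshold, like COP1, whose profile they were chosen to match. DDA1 encodes a subunit of the same ligase. For TRIB1 they were TRAIP (0.0384), PARS2 (0.0439), CDS1 (0.0517) and DECR1 (0.0529), none of which passed the test.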

How the data were processed

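Polyadenylated RNA of LNCaP cells was sequenced in 6 libraries, per the labels' protocols. Per the submitters' processing notes, tools were cutadapt 1.9, HISAT2 2.0.4 on hg38, StringTie 1.3.4d and edgeR; the series' design text names fastp for trimming and a merged assembly. The authors deposited estimated counts (whole numbers, so rounding changed none) and FPKM per gene; 0 columns lacked a sample. Counts of 4, 8 and 12 exceeded their neighbours in every library, so about 4 counts make a fragment.

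All genes were fitted with edgeR 4.0.16 (R 4.3.3): filterByExpr with minimum count 10 and total 15 left 21218 genes, with TMM scaling, the quasi-likelihood F-test and a threshold of 0.05. SE is the absolute log2 fold change over the square root of F. Libraries of a group differed beyond sampling noise (chi-square per degree of freedom 3.45 to 6.24 on counts divided by 4). Nothing says they came from separate cultures, so p-values measure the spread between libraries, which may be technical.

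Members and 7 gene lists were chosen with earlier results of these data known. Some lists share genes, so their counts are not separate results. Named genes were the members, up to 6 called genes per list with the lowest adjusted p, and the 4 nearest profiles per member. PPP1R15A, EIF2S1, EIF2AK4 and ATF5 were named beyond that rule after their values were seen, and some list members that did not pass are given as values. A few genes of the lists count in the totals and are not reported here. Profiles used log2 CPM with a prior count of 2. Alternatives were other scalings, no filter, DESeq2 1.42.0, counts divided by 4, limma 3.58.1 on FPKM, a replicate block and omitted libraries. Annotation was GENCODE 44, in which no exon of the 5 genes overlapped another gene and no 31-base word was shared between their transcripts. Strand and annotation release of the authors' counting: not given in the sources used here.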

Additional observations from a re-analysis of the deposited data

How the results depend on the processing

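TRIB2 (1.09 to 1.75) and TRIB3 (-3.50 to -3.33) kept their direction and their calls under all 15 alternatives. TRIB1 turned negative with total counts alone (-0.081), with limma on log2(FPKM + 1) (-0.059) and on log2(FPKM + 0.1) (-0.072), and ran from -0.061 to 0.089 with a library left out and 0.23 against control library 3 alone. COP1 lost its call with total counts alone (0.097) and on both FPKM scales (0.093 with a pseudocount of 1 and 0.10 with 0.1), and STK40 against control library 3 alone (-0.14). The change in the TRIB3 share of tribbles RNA was -38.2 points in CPM and -50.6 points with STK40 added. Against control library 3 alone 5204 genes were called in place of 8191, 2182 of them lower in place of 3921, and 23 list genes were lower in place of 41. List genes called higher numbered 29 with TMM, 18 with total counts alone and 19 on both FPKM scales. Higher genes were 52.1% of all calls with TMM, 36.1% with total counts alone, 37.5% on log2(FPKM + 1) and 37.3% on log2(FPKM + 0.1), and the list genes moved from 41.4% to 24.3% with total counts alone. On the FPKM scales 3 COP1 ligase genes, 1 TRIB3 regulator and 4 pseudokinases were higher and 4 AKT and MEK kinases lower, and with total counts alone 1 TRIB3 regulator was higher. Signs also turned for CEBPA (-0.045 with total counts, -0.040 and -0.045 on the FPKM scales) and for CUL4B (-0.028, -0.019 and -0.026). Values that kept their call but moved over 1.5 times included STK40 with total counts alone (-0.30), TRIB2 (1.09), CEBPB (-1.52), DET1 (-0.39), ROR1 (-0.72), DDB1 (0.24) and ILK (0.23) on log2(FPKM + 1), and AKT1 (0.21), CUL4A (0.20) and EIF2S1 (0.20) with total counts alone. The cause of these shifts was not tested.

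Same-numbered libraries had correlations of deviations of 0.0668, -0.0975 and 0.0682. Libraries of different numbers were not compared in this way, so these values cannot show whether replicate numbers pair the libraries. With a replicate block 7293 genes were called, and 65 list genes in place of 70. The block left TRIB1 at 0.035, TRIB2 at 1.69, TRIB3 at -3.39, STK40 at -0.19 and COP1 at 0.21, and changed no call of a named gene. For genes near 1 CPM counting error limits what can be seen.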
